A study of Mus musculus with 29 samples.

Results

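The 10 genes described here encode the constant chains of antibody and the proteins that join and transport it: Igha, Ighm, Ighg1, Ighg2b, Ighg2c, Ighg3, Igkc, Iglc1, Jchain and Pigr. They were chosen by symbol, not by their values, from 54532 genes counted by RNA-seq in whole colon tissue of 29 mice. All 10 passed the filter on low counts, a mean of at least 3 counts per mouse, together with 18616 genes in all.

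Mice fell into 9 groups, 6 models of colitis and 3 untreated controls. The wild-type control (n = 3), DSS (n = 3), DNBS (n = 3) and anti-IL10 (n = 4) groups are labelled Balb/C and have lymphocytes. DSS mice drank 3% DSS, a chemical that injures the epithelium, for 5 days and were culled on day 10. DNBS mice received 3 mg of DNBS, a hapten given rectally in ethanol. Anti-IL10 mice are labelled as given an IL10 blocking antibody, while the labels' protocol names 750 µg of anti-IL-10R with culling after 4 weeks and the study's methods describe Il10-/- mice colonised with a colitis microbiota. Il10 was counted 61 to 111 times in each of these 4 libraries, against 1 to 4 times in the wild-type control. The methods also name C57BL/6 for DSS, where the labels name Balb/C, and an earlier cull than the labels do.

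The other 16 mice are labelled as lacking Rag1 or Rag2, the enzymes that assemble antibody and T cell receptor genes, without which no mature B or T cells form. The Rag1-/- control (n = 3), TCT (n = 3) and anti-CD40 (n = 3) groups are labelled C57BL/6 Rag1-/-. TCT mice received 500000 naive CD4+ T cells and were culled after 6 to 8 weeks. Anti-CD40 mice received 50 µg of an antibody that activates CD40 and were culled after 7 days. The Rag2-/- control (n = 3) is labelled Balb/C Rag2-/-, and TRUC mice (n = 4), labelled Balb/C Tbx21-/- x Rag2-/-, develop colitis without treatment. For the TCT recipients the labels' protocol names Rag2-/- mice. Rag1 was counted 20 to 33 times in the libraries labelled TCT and 0 to 4 times in all others. Rag2 was counted 0 times in those labelled TCT, 6 to 20 times in those labelled Rag1-/- control and 48 to 99 times in those labelled anti-CD40. In the libraries labelled as lacking Rag2 it was counted 15 to 25 times (Rag2-/- control) and 57 to 94 times (TRUC), against 0 or 1 time in those labelled wild-type control. Tbx21 was counted 26 to 52 times in the libraries labelled TRUC and 1 to 7 times in those labelled Rag2-/- control. A part of a disrupted gene can still be transcribed, so these counts do not settle the genotype, and directions below hold for the libraries as labelled. Age and sex are not given in the labels. Strain, genotype and any shared housing or preparation of a group cannot be told apart.

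Total counts per library ran from 10725564 to 14977094. DSS mouse 8 stood apart from the other DSS mice, with 594 counts of Ifng against 7 and 2, and anti-IL10 mouse 3 was the highest of its group in all IgG genes and Ighm. Results that change without either mouse are given both ways, and for genes other than the 10 this was chosen after seeing the data.

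An antibody consists of paired heavy chains, whose constant gene sets the class (Igha for IgA, Ighm for IgM, the Ighg genes for the IgG subclasses), and paired light chains, kappa (Igkc) or lambda (Iglc1). In the gut, plasma cells of the lamina propria secrete mainly IgA as a dimer held together by the J chain (Jchain). The polymeric immunoglobulin receptor (Pigr) of epithelial cells takes up dimeric IgA and pentameric IgM and carries them into the lumen. IgG is not joined by the J chain.

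The sequences that tell these genes apart are shown first, because the 4 IgG genes are near copies. All come from the reference genome, build GRCm38, and are written 5′ to 3′ on the coding strand. The hinge exon differs between IgG subclasses in length and in its cysteine codons, which are in capitals. On the minus strand of chromosome 12 these exons lie at chr12:113329844-113329882 (Ighg1), chr12:113307261-113307326 (Ighg2b), chr12:113288263-113288325 (Ighg2c) and chr12:113360529-113360576 (Ighg3).
Ighg1 hinge: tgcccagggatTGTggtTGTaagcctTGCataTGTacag
Ighg2b hinge: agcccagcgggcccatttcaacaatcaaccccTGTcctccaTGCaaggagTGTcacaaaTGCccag
Ighg2c hinge: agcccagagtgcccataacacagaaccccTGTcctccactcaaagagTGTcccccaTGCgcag
Ighg3 hinge: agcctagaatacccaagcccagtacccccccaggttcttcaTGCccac
The exons hold 4 such codons in Ighg1 and Ighg2b, 3 in Ighg2c and 1 in Ighg3. Over whole genes, between 0.393% (Ighg1) and 5.49% (Ighg2c) of the 50-base windows of an IgG gene's exons also occur in another gene, and reads from those windows cannot be placed with certainty. Ighg2c is the gene of C57BL/6 mice. Balb/C mice are known to carry Ighg2a in its place, and how reads of Ighg2a were assigned was not tested.

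The end of the secreted heavy chain separates the classes that the J chain can join from those it cannot. The last 63 coding bases before the stop codon of the secreted form lie at chr12:113258771-113258833 (Igha), chr12:113420870-113420932 (Ighm) and chr12:113306392-113306454 (Ighg2b), also on the minus strand. Capitals mark a cysteine codon.
Igha end: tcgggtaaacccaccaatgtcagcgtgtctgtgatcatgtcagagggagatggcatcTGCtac
Ighm end: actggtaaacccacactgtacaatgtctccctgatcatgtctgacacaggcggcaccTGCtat
Ighg2b end: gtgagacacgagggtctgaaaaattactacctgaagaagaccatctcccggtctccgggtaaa
Igha and Ighm each hold 1 cysteine codon here, next to the last codon, through which IgA and IgM are known to bind the J chain. Ighg2b holds none.

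Antibody chains made up a small share of the colon's RNA in untreated mice and a much larger share in anti-IL10 mice. In the wild-type control, Pigr was the most abundant of the 10 per kilobase of transcript, with 868.5 ± 47.9 CPM (counts scaled to a common library total) per kilobase (SD, n = 3), ahead of Igha with 417.3 ± 281 and Igkc with 402.9 ± 258. Igha and Igkc do not differ beyond their spread, and Ighg1 with 3.208 ± 0.88, Ighg2c with 6.96 ± 8.44 and Ighg2b with 10.4 ± 13.2 do not either. Ighg3 was lowest, with 0.791 ± 0.279. In anti-IL10 mice the order was Igha with 3829 ± 856, Igkc with 3165 ± 569, Jchain with 1147 ± 203 and Pigr with 969.9 ± 175 CPM per kilobase (SD, n = 4). Between mice the values of Igha and Igkc overlapped here, as did those of Jchain and Pigr. Within each of the 4 mice, Igha lay above Igkc and Jchain above Pigr per kilobase.

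**Figure D1:**
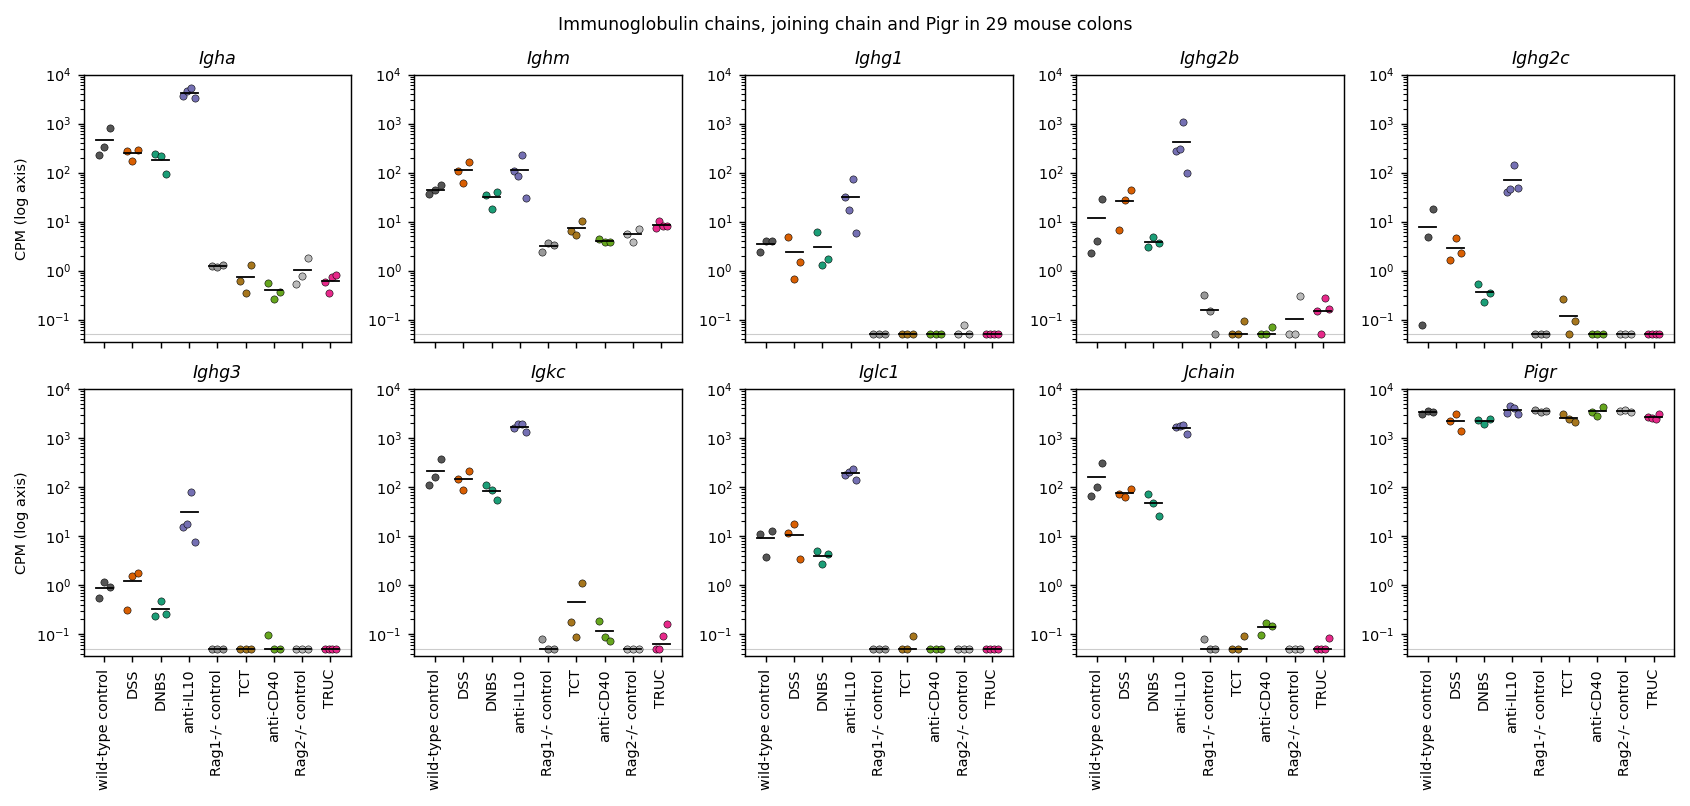
CPM (log axis) of each of the 10 genes in each of the 29 mice by group. Points are mice, the black bar is the group mean, and a count of 0 is drawn at 0.05. All antibody chains but Ighm sit above the controls in the 4 anti-IL10 mice, all are near 0 or low in the 16 Rag-deficient mice, and Pigr lies between 1370 and 4464 in every mouse.

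In anti-IL10 colitis, 9 of the 10 genes rose and none fell, against 27.2% of all tested genes higher and 26.1% lower. The median log2 fold change of the 10 was 3.21, and that of all genes −0.01. Igha, the IgA heavy chain, was measured at 3287, 3601, 4625 and 5333 CPM in anti-IL10 mice and at 227.8, 339.5 and 809.8 CPM in wild-type controls. The groups did not overlap, and Igha rose 9.18-fold, a log2 fold change of 3.20 ± 0.38 (standard error; edgeR quasi-likelihood test, adjusted p = 1.11e-06).

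Jchain and the light chains, the partners of IgA, rose as well. Jchain was measured at 1182, 1675, 1734 and 1802 CPM against 64.4, 99.7 and 309.6 CPM in the controls, and rose by a log2 fold change of 3.34 ± 0.41 (edgeR adjusted p = 2.07e-06). Igkc, the kappa light chain, was measured at 1301, 1585, 1887 and 1961 CPM against 111.4, 161.7 and 369.9 CPM, and rose by 2.97 ± 0.40 (adjusted p = 4.86e-06). In both genes control mouse 4 was the highest of its group and still below every anti-IL10 mouse.

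Iglc1, a lambda light chain, was measured at 136.5, 176.1, 206.4 and 236.3 CPM against 3.73, 10.9 and 12.9 CPM. The groups were far apart, and the log2 fold change was 4.37 ± 0.49 (adjusted p = 6.01e-06). Of the other lambda and heavy chain constant genes, 3 of 7 passed the filter on low counts and 2 of these rose, Iglc2 by 6.28 ± 0.53 and Iglc3 by 3.85 ± 0.65 on the log2 scale (edgeR adjusted p = 2.07e-07 and 0.000149).

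All 4 IgG genes rose as well, by amounts that ranged widely between mice. Ighg2b was measured at 99.5, 271.1, 297.1 and 1052 CPM, against 2.29, 3.99 and 28.6 CPM in the controls, a log2 fold change of 5.22 ± 0.80 (adjusted p = 1.66e-05). Ighg3 was measured at 7.63, 15.6, 17.2 and 80.9 CPM against 0.533, 0.902 and 1.13 CPM, a log2 fold change of 5.13 ± 0.82 (adjusted p = 0.000114). In both genes anti-IL10 mouse 3 was the highest and mouse 4 the lowest, and the groups did not overlap.

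Ighg1 was measured at 5.96, 17.6, 31.7 and 74.1 CPM against 2.36, 3.93 and 4.06 CPM, and rose by a log2 fold change of 3.23 ± 0.80 (adjusted p = 0.00349). Ighg2c was measured at 39.4, 46.8, 49.3 and 145.1 CPM against 0.0762, 4.93 and 18.2 CPM, and rose by 3.19 ± 0.84 (adjusted p = 0.00526). The 4 IgG genes rose without anti-IL10 mouse 3 too, by log2 fold changes of 2.41 (Ighg1), 4.27 (Ighg2b), 2.55 (Ighg2c) and 3.96 (Ighg3), with edgeR adjusted p values of 0.0116, 3.85e-05, 0.0187 and 4.27e-05.

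Ighm, the IgM heavy chain, behaved differently. It was measured at 30.7, 86.9, 108.2 and 231.7 CPM in anti-IL10 mice and at 36, 43.5 and 55.7 CPM in wild-type controls. Mouse 4 lay below every control, so the groups overlapped. The log2 fold change was 1.35 ± 0.42 (edgeR adjusted p = 0.00942), and without anti-IL10 mouse 3 it was 0.74 and no longer passed the threshold (adjusted p = 0.088). The call was also lost when the 2 groups were fitted alone, in edgeR (log2 fold change 1.33, adjusted p = 0.0752) and in DESeq2 (1.33, adjusted p = 0.0739), and with a replicate block (0.60, edgeR adjusted p = 0.334).

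Pigr did not pass the test in anti-IL10 mice. It was measured at 3094, 3233, 4142 and 4464 CPM against 3143, 3380 and 3506 CPM in the controls. The groups overlapped, and the log2 fold change was 0.16 ± 0.19 (95% confidence interval −0.23 to 0.55, adjusted p = 0.498). Changes of up to the ends of this interval could not be told from none.

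**Figure D2:**
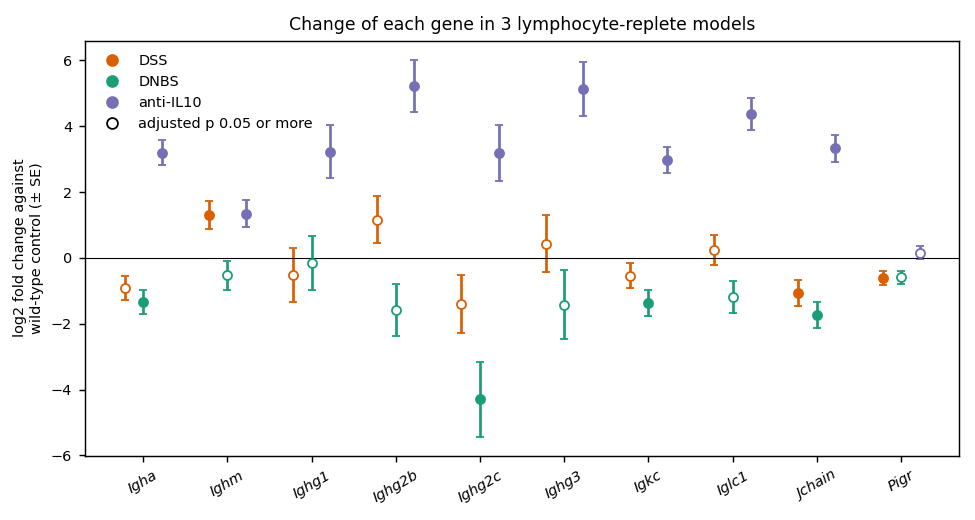
Log2 fold change of each gene from the wild-type control in DSS, DNBS and anti-IL10 mice, with standard errors. Filled points passed an adjusted p of 0.05 and open points did not. In anti-IL10 colitis 9 of 10 genes are filled and higher, in DSS 1 is filled and higher with 2 lower, and in DNBS 4 are filled and lower.

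In DSS colitis, Ighm was called higher and Jchain and Pigr lower. That is 1 of 10 genes higher and 2 lower, against 17.7% of all genes higher and 16.3% lower. These counts do not stand out from those shares, and without DSS mouse 8, 0 of the 10 genes were called. The median log2 fold change was −0.53 for the 10 and 0.02 for all genes. Ighm was measured at 60.2, 109.6 and 164.1 CPM in DSS mice and lay above all controls in each. It rose 2.47-fold, a log2 fold change of 1.31 ± 0.44 (edgeR adjusted p = 0.0237). The call was lost when any of control mouse 1, control mouse 2 or DSS mouse 8 was left out, with log2 fold changes of 1.17, 1.28 and 0.92.

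Jchain was measured at 61.9, 73.5 and 92.2 CPM in DSS mice, within or below the range of the controls. Its log2 fold change was −1.06 ± 0.39 (edgeR adjusted p = 0.0409) and moved to −0.11 without control mouse 4, the control highest in Igha, Igkc and Jchain. Leaving out any of the 3 DSS mice also ended the call (adjusted p between 0.0564 and 0.118). Igha, at 174.9, 277.2 and 284.2 CPM, had a log2 fold change of −0.90 ± 0.37 that did not pass the threshold (adjusted p = 0.059). It passed without control mouse 1 (−1.22, adjusted p = 0.0163) and without control mouse 2 (−1.08, adjusted p = 0.0486).

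The IgG and light chain genes of DSS mice did not pass the test and spread widely. Ighg2b was measured at 6.60, 27.3 and 43.7 CPM and Ighg1 at 0.683, 1.52 and 4.91 CPM. Igkc lay at 86.6, 145.5 and 209.3 CPM, within or just below the controls' range. Ighg2c, Ighg3 and Iglc1 overlapped with the controls too. Without control mouse 4, the highest control, Ighg2b passed the test with a log2 fold change of 3.02 (adjusted p = 0.00651). Without control mouse 1, the lowest control in Ighg2c, that gene passed in the other direction (−1.99, adjusted p = 0.0336).

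Pigr was measured at 1370, 2172 and 3043 CPM in DSS mice, below every control. It fell 1.52-fold, a log2 fold change of −0.61 ± 0.20 (adjusted p = 0.024). DSS mouse 8 was the lowest, and without it the log2 fold change was −0.36 (adjusted p = 0.175). The call was also lost without control mouse 2 or 4 (adjusted p = 0.0594 and 0.0559).

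In DNBS colitis, 4 of the 10 genes fell and none rose, against 2.21% of all genes lower and 3.95% higher, with a median log2 fold change of −1.35 for the 10 and 0.01 for all genes. Igha was measured at 93.2, 214.8 and 237.3 CPM, 2 of the 3 below all controls, and fell by 1.34 ± 0.37 on the log2 scale (edgeR adjusted p = 0.034). Igkc was measured at 54.1, 85.9 and 109.1 CPM, below every control, and fell by 1.37 ± 0.39 (adjusted p = 0.039). Jchain, at 25.1, 47.1 and 70.4 CPM, fell by 1.73 ± 0.40 (adjusted p = 0.0152).

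Ighg2c was the remaining gene called. It was measured at 0.233, 0.341 and 0.537 CPM in DNBS mice, and the controls ran from 0.0762 to 18.2 CPM, so the groups overlapped. Its log2 fold change was −4.29 ± 1.14 (adjusted p = 0.0387). None of these 4 falls passed without control mouse 4 (log2 fold changes −0.64 for Igha, −2.71 for Ighg2c, −0.72 for Igkc and −0.78 for Jchain), and none passed without DNBS mouse 14 or 16 either.

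The other members in DNBS mice gave no call. Ighm lay at 18.3, 35.5 and 40 CPM, Ighg1 at 1.32, 1.71 and 6.09 CPM and Iglc1 at 2.71, 4.35 and 4.83 CPM. Ighg3, at 0.239, 0.256 and 0.465 CPM, lay below every control near the level of a few counts. Pigr was measured at 1887, 2372 and 2392 CPM, below every control, with a log2 fold change of −0.59 ± 0.20 that missed the threshold (adjusted p = 0.079).

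The differences between the 3 models were tested directly, since they share their control mice. All 10 genes differed between DSS, DNBS and anti-IL10 mice in an F test (edgeR), as did 56.8% of all tested genes. The adjusted p was lowest for Igha (5.31e-09) and Jchain (9.34e-09) and highest for Ighm (0.00184).

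The balance between heavy chain classes was taken within each library from the counts, so that no scaling between libraries enters. Counts are per gene, so transcripts for secreted antibody and for the B cell receptor, such as those of Ighm, are not told apart. Whether the shares and ratios below reflect secreted antibody was not tested. Per kilobase of secreted transcript, Igha made up 88.5 ± 1.1% of the 6 heavy chains in the wild-type control (SD, n = 3), 68.8 ± 6.01% in DSS, 83.6 ± 9.86% in DNBS and 88.3 ± 7.28% in anti-IL10 mice (SD, n = 4). Ighm made up 7.68 ± 2.88%, 21.9 ± 4.55%, 12.7 ± 9.02% and 1.60 ± 0.806% of the same groups. The 4 IgG genes together made up 3.79 ± 1.82%, 9.28 ± 5.06%, 3.73 ± 0.872% and 10.1 ± 6.56%.

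**Figure D3:**
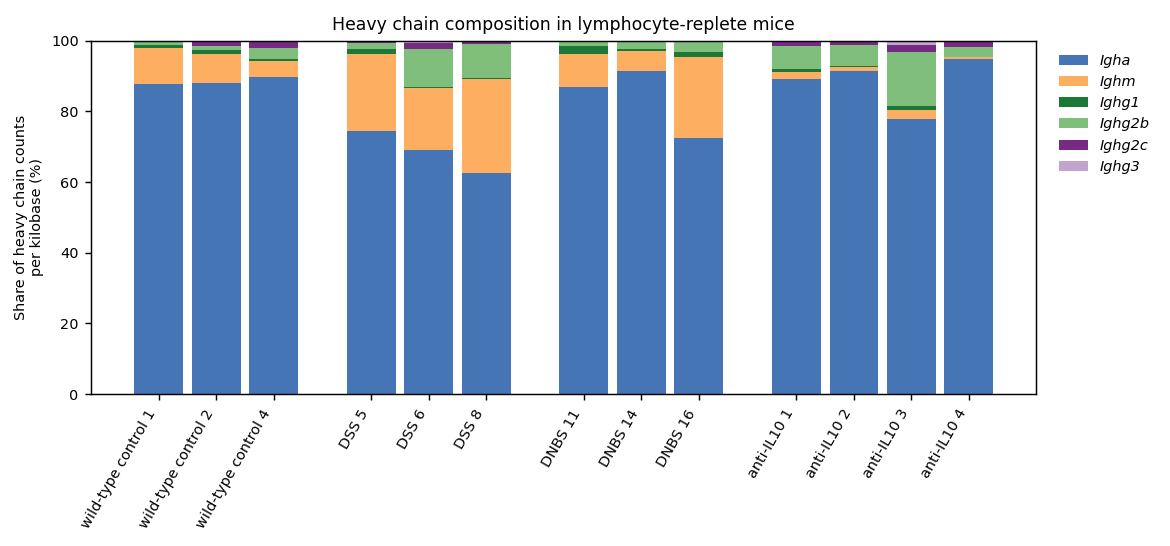
Share of each heavy chain gene among the 6, in percent of counts per kilobase of secreted transcript, 1 bar per mouse for 13 mice. Igha holds between 62.6 and 94.7% in every mouse, Ighm has its largest group mean in DSS mice and its smallest in anti-IL10 mice, with DNBS mouse 16 at 22.9% inside the DSS range of 17.5 to 26.6%, and the Ighg2b share is largest in anti-IL10 mouse 3.

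The IgM to IgA ratio lay on opposite sides of the controls in DSS and anti-IL10 mice. Its log2 was −3.86, −2.96 and −2.66 in the controls, −1.54, −1.34 and −0.79 in DSS mice, and −6.74, −5.73, −5.06 and −4.52 in anti-IL10 mice. Every DSS mouse lay above and every anti-IL10 mouse below all controls, with mean differences of 1.94 and −2.35. The exact two-sided permutation p values were 0.1 (n = 3 and 3) and 0.0571 (n = 4 and 3), the smallest these group sizes allow, so no ratio could reach 0.05. Adjusted over the 9 ratio tests both were 0.257. In DNBS mice the difference was 0.66 and the groups overlapped (exact permutation p = 0.5).

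The IgG to IgA log2 ratio averaged −4.66 ± 0.73 in the controls, −3.08 ± 1.11 in DSS, −4.50 ± 0.51 in DNBS and −3.32 ± 0.99 in anti-IL10 mice. All 3 models overlapped with the controls (exact permutation p = 0.2, 0.7 and 0.114). DSS mice 6 and 8 and anti-IL10 mouse 3 were the highest, at −2.35, −2.53 and −1.98.

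The lambda to kappa log2 ratio, with Iglc1 as the only lambda gene, was −3.25, −3.19, −3.17 and −3.05 in anti-IL10 mice and spread from −5.43 to −3.35 in the controls. All anti-IL10 mice lay above all controls, a mean difference of 1.37 (exact permutation p = 0.0571, adjusted 0.257). Iglc1 made up 11.5 ± 0.624% of Iglc1 and Igkc together per kilobase in anti-IL10 mice and 5.62 ± 4.11% in the controls. In DSS and DNBS mice the ratio overlapped with the controls (exact permutation p = 0.8 in both).

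The other lambda constant genes varied more between anti-IL10 mice than Iglc1 did. Iglc2 was measured at 103.2, 166.0, 177.5 and 399.0 CPM there and at 1.90, 2.20 and 4.10 CPM in the controls, and Iglc3 at 5.90, 6.79, 31.9 and 43.4 CPM against 1.46, 1.52 and 1.56 CPM. Iglc2 and Iglc3 are known to be near copies of each other, so reads may be split between them. With Iglc1, Iglc2 and Iglc3 summed over Igkc, a choice made after seeing the data, the log2 ratio was −2.47, −2.18, −2.02 and −1.56 in anti-IL10 mice and −4.45, −4.32 and −2.96 in the controls. The groups did not overlap, with a mean difference of 1.85 (exact permutation p = 0.0571, n = 4 and 3).

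**Figure D4:**
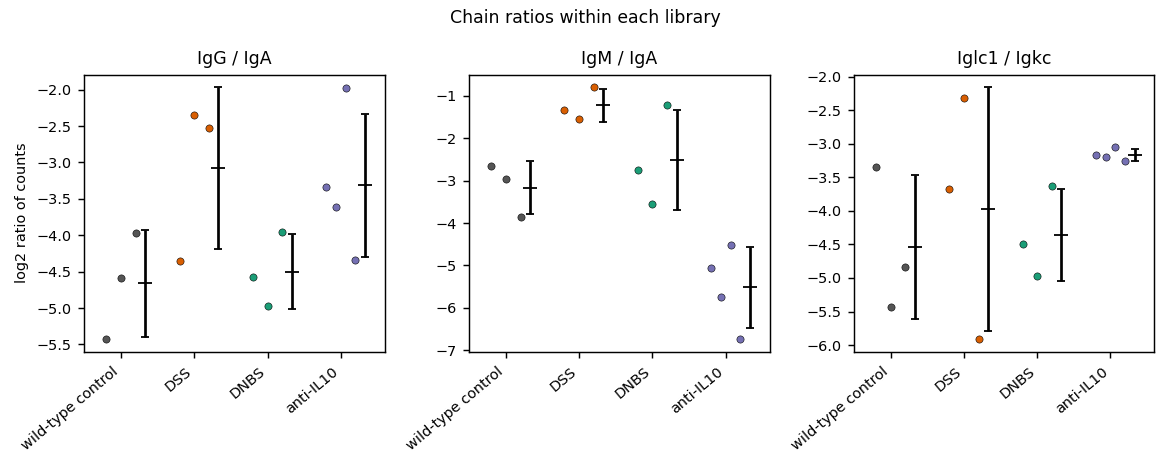
Log2 ratios of counts within each library, IgG to IgA, IgM to IgA and Iglc1 to Igkc, in the 13 lymphocyte-replete mice. Points are mice, bars the mean ± SD. The IgM to IgA ratio lies above the controls in all 3 DSS mice and below them in all 4 anti-IL10 mice.

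Genes of the cells that make antibody were set beside these values. The lists below are read against the shares of all genes called, 17.7% higher and 16.3% lower in DSS, 3.95% and 2.21% in DNBS, and 27.2% and 26.1% in anti-IL10 mice. Without DSS mouse 8, calls over all 18616 genes went from 3299 higher and 3037 lower to 1940 and 1895. List counts without that mouse therefore drop along with those of all genes. Without anti-IL10 mouse 3, calls over all genes went from 5058 higher and 4858 lower to 4868 and 4758. Of 14 plasma cell genes, 14 rose and none fell in anti-IL10 mice, 6 rose and 1 fell in DSS mice, and 3 rose in DNBS mice. In anti-IL10 mice the largest changes were in Mzb1 and Derl3, which act in the secretory pathway of plasma cells, with log2 fold changes of 3.59 and 3.35, and the smallest were in Sdc1 and Ell2 (0.54 and 0.60). In DSS mice Prdm1, a transcription factor of plasma cell differentiation, rose by 2.52 and Tnfrsf17, the BCMA receptor of plasma cells, fell by 1.96. Prdm1 was measured at 14.2, 12.2 and 48.4 CPM in DSS mice 5, 6 and 8, and without mouse 8 its log2 fold change was 1.62 (edgeR adjusted p = 0.000382). Without that mouse 3 of the 14 genes rose and none fell, and Tnfrsf17 was at −1.69 (adjusted p = 0.139). Several of these genes are also used by epithelium and other cells. In the Rag-deficient models 5 of the 14 rose in TCT, 4 in anti-CD40 and 5 in TRUC mice, and none fell. Of all genes 16.1%, 10.9% and 22.4% were called higher there. Xbp1, Prdm1, Tnfrsf13b and Creld2, named after their values were seen, rose in DSS mice and in each of these models. The rises in DSS mice are thus not particular to mice with plasma cells. Xbp1, Sdc1 and Txndc5 were counted at least 1708 times in each of the 16 Rag-deficient libraries, whereas Mzb1 was counted at most 5 times there. In bulk tissue, more plasma cells and more RNA per plasma cell cannot be told apart.

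B cell genes followed another order. Of 13, 6 rose in DSS mice, none in DNBS mice and 1 in anti-IL10 mice. In DSS mice Cd22 and Pax5 rose by log2 fold changes of 1.63 and 1.57, and Cd79a and Cd79b, parts of the B cell receptor, by 1.33 and 1.34. Ighd, the IgD heavy chain of naive B cells, rose by 1.39 ± 0.48 (edgeR adjusted p = 0.027). Without DSS mouse 8 only Cd72 of the 13 passed, and Cd22, Pax5, Cd79a, Cd79b and Ighd had log2 fold changes of 1.26, 1.20, 0.92, 0.90 and 1.04 (adjusted p = 0.1 to 0.216). In anti-IL10 mice the gene called was Blnk, an adaptor of the B cell receptor, by 0.96. Blnk was also counted 881 times or more in every Rag-deficient library. Without anti-IL10 mouse 3, Blnk still rose, while Fcer2a, Cr2 and Ighd passed as lower, at −1.93, −1.48 and −1.27 (adjusted p = 0.00101, 0.0208 and 0.0106). Cd72, Fcer2a and Cr2 are named from these counts, after their values were seen.

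Genes of lymphoid follicles, class switching and homing were read against the same shares of all genes. Their few calls in DNBS mice do not stand out from the 3.95% of all genes higher and 2.21% lower there. Of 7 follicle genes tested, 5 rose in DSS mice (2 without mouse 8), 3 rose and 1 fell in anti-IL10 mice (2 and 1 without mouse 3) and none was called in DNBS mice. Madcam1, the vessel ligand for gut-homing lymphocytes, rose by log2 fold changes of 2.44 and 1.95, and Glycam1 fell by 2.02 in anti-IL10 mice, and by 3.09 without mouse 3. Of 10 switching and survival genes tested, 5 rose and 1 fell in DSS mice (4 and 1 without mouse 8), 7 rose in anti-IL10 mice (5 without mouse 3) and 1 rose in DNBS mice. Il10 rose by 5.33 in anti-IL10 mice. In DSS mice 5, 6 and 8 it was measured at 0.881, 1.03 and 7.03 CPM, with a log2 fold change of 3.82, and of 2.21 without mouse 8 (edgeR adjusted p = 0.046). Tnfsf13, the plasma cell survival factor APRIL, fell by 1.02 in DSS and rose by 0.80 in anti-IL10 mice.

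Of 8 homing genes, 4 rose and 1 fell in DSS mice and 3 rose in anti-IL10 mice, with no call in DNBS mice. The share higher in anti-IL10 mice, 3 of 8, lies near the 27.2% of all genes. Ccr10, the receptor that guides IgA plasma cells to the colon, rose by 2.69 ± 0.36 in anti-IL10 mice (edgeR adjusted p = 3.45e-06). Its ligand Ccl28 fell by 0.84 ± 0.26 in DSS mice (adjusted p = 0.0142). Without mouse 8 its log2 fold change was −0.52 (adjusted p = 0.103), and 4 homing genes rose and none fell. Of 11 T cell genes, 10 rose in DSS mice (4 without mouse 8) and 11 in anti-IL10 mice (also 11 without mouse 3). Of 6 smooth muscle genes, 5 fell in anti-IL10 mice (3 without mouse 3). The share of these cell types in the changes of antibody chains was not tested.

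Between 4 and 6 of the 9 Fc receptor genes tested, which bind antibody on leukocytes and other cells, were called higher in each model. In DSS, anti-IL10 and TCT mice 6 rose and 1 fell, in DNBS mice 4 rose, and in anti-CD40 and TRUC mice 5 rose and 1 fell. Of all genes 16.1%, 10.9% and 22.4% were called higher in TCT, anti-CD40 and TRUC mice and 14%, 10.7% and 23.4% lower, beside the shares given above for the other models. Without DSS mouse 8, 5 rose and none fell in DSS mice, and without anti-IL10 mouse 3, 6 rose and 2 fell in anti-IL10 mice. Fcgr4, an activating receptor for IgG2 subclasses, rose by log2 fold changes of 5.63 in DSS, 2.85 in DNBS, 4.09 in anti-IL10, 2.59 in anti-CD40 and 3.93 in TRUC mice. Without mouse 8 its change in DSS mice was 3.77 (edgeR adjusted p = 4.15e-06). In TCT mice Fcgr3 changed most, by 4.64. Fcamr, a receptor for IgA and IgM, fell in DSS, anti-IL10 and TCT mice by 1.38, 1.19 and 1.60, with −1.002 in DSS mice without mouse 8 (adjusted p = 0.154) and −1.89 in anti-IL10 mice without mouse 3 (adjusted p = 0.00125). Fcgrt, the neonatal Fc receptor, fell in anti-CD40 and TRUC mice by 0.67 and 0.96.

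The genes most like Igha over the 13 lymphocyte-replete mice, by the correlation of log2 CPM among 10645 genes outside the Igh, Igk and Igl symbols, were Jchain, Mzb1, Rps3a3, Rps3a2 and Alkbh6. That order rests on the 4 anti-IL10 mice, which lie above all others, so only values over the other 9 mice are given. There Pearson's r with Igha was 0.977 for Jchain, 0.693 for Alkbh6, 0.514 for Mzb1, 0.318 for Rps3a3 and −0.121 for Rps3a2. Among the members it was 0.953 for Igkc, 0.241 for Iglc1 and 0.224 for Ighm. These mice share groups, and each r is a description.

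The Rag2-/- control was compared with the wild-type control, both untreated and labelled Balb/C, to give the level of each gene without mature lymphocytes. Of the 10 genes, 8 were lower and none higher, against 4.86% and 3.25% of all genes. Igha was lower by a log2 fold change of −8.75 ± 0.55 (edgeR adjusted p = 1.24e-11). Where the Rag2-/- control had 0 counts, only a bound on the fold can be given, with 3 counts allowed per library. Igkc was at least 892-fold lower, Jchain at least 657-fold, Iglc1 at least 38.1-fold and Ighg2c at least 32.2-fold. Ighg1 was counted once, 131-fold lower with a 95% counting interval of 23 to 5190. Its call was lost when any of the 3 Rag2-/- mice was left out. Ighg3, at least 3.56-fold lower, missed the threshold (adjusted p = 0.0705).

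A low signal of Ighm and Igha remained in all 16 Rag-deficient mice. Ighm was counted 30 to 114 times and Igha 3 to 24 times per library, against at least 236 and 1093 in every lymphocyte-replete mouse. Cd79a, part of the B cell receptor, was counted 0 to 4 times in each of the 16. Cd79a, and the counts of Mzb1, Xbp1, Sdc1, Txndc5 and Blnk given for Rag-deficient mice, were chosen after their values were seen. Ighg1, Ighg3 and Iglc1 were counted at most 1 time in any of these libraries, Jchain at most 2 times, Ighg2c at most 3 times and Ighg2b at most 4 times.

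Against their own Rag-deficient controls, none of the 10 genes was called in TCT, anti-CD40 or TRUC mice. There edgeR called 16.1%, 10.9% and 22.4% of all genes higher and 14%, 10.7% and 23.4% lower. Over all 16 Rag-deficient libraries, Ighg1, Ighg3 and Iglc1 were each counted 1 time. Ighg2c was counted 4 times, Jchain 8, Ighg2b 19 and Igkc 23 times. These genes passed the low-count filter through the lymphocyte-replete mice, so their lack of a call says little. Only Igha, Ighm and Pigr were counted in every one of these libraries. At an unadjusted p under 0.05 in the same fit, 3 of the 10 passed in TCT mice (Ighm, Igkc and Pigr). In anti-CD40 mice 1 passed (Igha), and in TRUC mice 1 (Pigr). A 2-group edgeR fit and DESeq2 made up to 2 calls in each. Ighm averaged 7.28 ± 2.5 CPM in TCT mice against 3.10 ± 0.606 in the Rag1-/- control (SD, n = 3 and 3), with every TCT mouse above every control and a log2 fold change of 1.22 ± 0.53 (adjusted p = 0.0837). In TRUC mice it averaged 8.43 ± 1.18 against 5.47 ± 1.52 CPM, also without overlap (adjusted p = 0.289). Igkc was counted 15 times in TCT mice, 12 of them in mouse 5, and 1 time in the Rag1-/- control, a ratio of 16.6 with a 95% counting interval of 2.55 to 698.

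Pigr was abundant with or without lymphocytes. It was measured at 3358, 3599 and 3714 CPM in the Rag2-/- control and at 3352, 3585 and 3783 CPM in the Rag1-/- control, on both sides of the wild-type values of 3143, 3380 and 3506 CPM. The log2 fold change from wild-type to Rag2-/- control was 0.09 ± 0.20 (95% confidence interval −0.33 to 0.51, edgeR adjusted p = 0.864).

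In the Rag-deficient models Pigr lay below its control without a call, or overlapped with it. TCT mice had 2166, 2420 and 3046 CPM, all below the Rag1-/- control, a log2 fold change of −0.49 ± 0.20 (adjusted p = 0.0718). TRUC mice had 2497, 2510, 2685 and 3021 CPM, all below the Rag2-/- control, a log2 fold change of −0.41 ± 0.19 (adjusted p = 0.0797). Anti-CD40 mice had 2871, 3416 and 4377 CPM, on both sides of their control, and a log2 fold change of −0.01 (95% confidence interval −0.43 to 0.41, adjusted p = 0.994). Fitted on the groups compared alone, Pigr passed the threshold in TCT (adjusted p = 0.0159) and TRUC mice (adjusted p = 0.00139) and lost it in DSS mice (adjusted p = 0.134). The change of Pigr from own control differed between the 6 models (F test, edgeR adjusted p = 0.00346), as did 60.5% of all genes.

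Pigr was also set beside 13 epithelial genes of the same library, as its log2 CPM minus their mean log2 CPM. This value was 2.63 ± 0.19 in the wild-type, 2.23 ± 0.05 in the Rag1-/- and 2.21 ± 0.10 in the Rag2-/- control (SD, n = 3 each). It was lower than in the own control by 0.56 in DSS, 0.92 in DNBS, 0.89 in anti-IL10, 0.49 in TCT, 0.34 in anti-CD40 and 0.67 in TRUC mice. All mice of 5 models lay below all their controls (exact permutation p = 0.1 for 3 mice and 0.0571 for 4, adjusted over 7 comparisons 0.117), and anti-CD40 mice overlapped with theirs (exact permutation p = 0.3). The smallest p these sizes allow is over 0.05.

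Cdx2, an epithelial transcription factor of that list, differed widely between the control groups, and the values change without it. It was measured at 3.88 to 8.12 CPM in the wild-type control, 73.3 to 93.1 CPM in the Rag1-/- and 29.3 to 56.5 CPM in the Rag2-/- control, 7.69 to 20.4 CPM in TCT mice, and 15.6, 11.3, 166.7 and 468.7 CPM in anti-IL10 mice 1 to 4. Without Cdx2, a choice made after seeing the data, the value was 2.07 ± 0.17 in the wild-type, 1.96 ± 0.03 in the Rag1-/- and 1.85 ± 0.07 in the Rag2-/- control (SD, n = 3 each). The differences from own control were then −0.42 in DSS, −0.82 in DNBS, −0.69 in anti-IL10, −0.71 in TCT, −0.42 in anti-CD40 and −0.73 in TRUC mice. DSS mice overlapped with their control in this form (exact permutation p = 0.2), and anti-CD40 mice no longer did (exact permutation p = 0.1).

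The epithelial genes themselves were called in differing numbers. Of the 13, 12 rose in anti-IL10, 5 in TRUC, 4 in anti-CD40 and 1 in DNBS mice. In DSS mice 6 fell and 1 rose (5 and none without mouse 8), and in TCT mice 1 rose and 1 fell. Of all genes 27.2%, 22.4%, 10.9% and 3.95% were called higher in anti-IL10, TRUC, anti-CD40 and DNBS mice. In DSS mice 17.7% were higher and 16.3% lower, and in TCT mice 16.1% and 14%. The single calls in DNBS and TCT mice, and the rise in DSS mice, do not stand out from these shares. Krt20, a keratin of mature colonocytes, rose by log2 fold changes of 1.13 in DSS (0.84 without mouse 8, edgeR adjusted p = 0.0509), 2.54 in anti-IL10, 1.40 in TCT, 1.34 in anti-CD40 and 1.45 in TRUC mice. Their summed level was 12530 to 14860 CPM in the wild-type control, 9689 to 12090 CPM in DSS mice and 19640 to 27730 CPM in anti-IL10 mice. The part of epithelial content in the Pigr values was not tested.

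**Figure D5:**
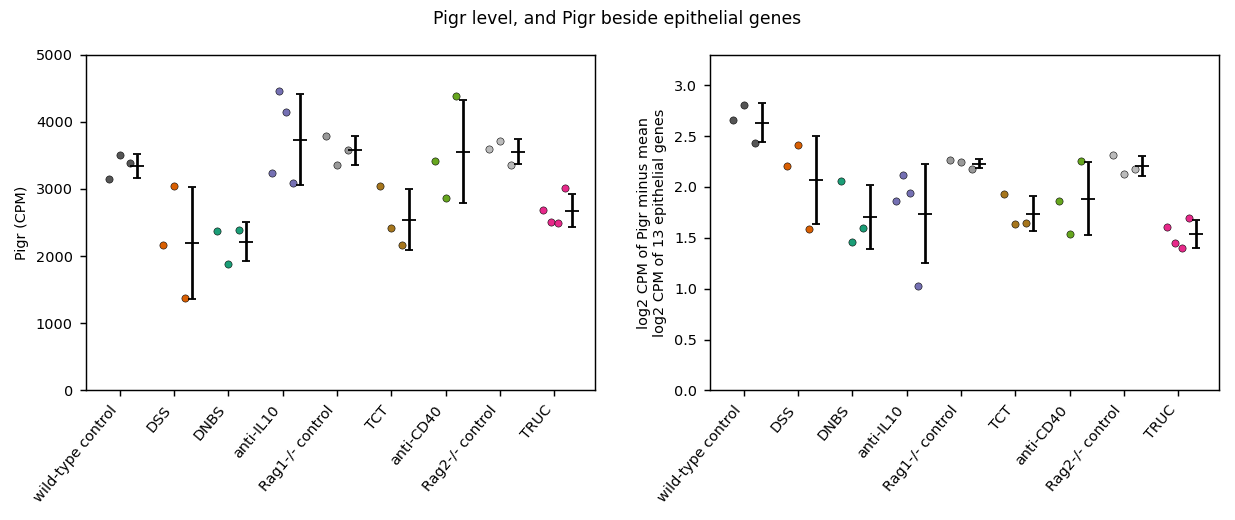
Pigr in all 9 groups, in CPM (left) and as log2 CPM minus the mean log2 CPM of 13 epithelial genes (right). Points are mice, bars the mean ± SD. DSS, DNBS, TCT and TRUC mice lie below their controls in both panels, and anti-IL10 mice lie below theirs in the right panel and overlap in the left.

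Genes known to act on Pigr were called higher in all 6 models, in differing numbers. Interferon-γ, TNF, IL-1 and IL-17 are known to raise its transcription in epithelial cells through IRF1 and NF-κB. Of 19 genes of these pathways, 13 rose and 1 fell in DSS (6 and 1 without mouse 8), 14 rose in anti-IL10 (13 without mouse 3), 10 in TCT, 9 in anti-CD40 and 2 in DNBS mice, 9 rose and 1 fell in TRUC mice, and none was called in the Rag2-/- control. Of all genes, 17.7% were called higher in DSS, 27.2% in anti-IL10, 16.1% in TCT, 10.9% in anti-CD40, 3.95% in DNBS and 22.4% in TRUC mice. In DSS and TRUC mice 16.3% and 23.4% were called lower. Il1b rose by log2 fold changes of 3.66 in DNBS, 5.01 in TCT, 2.94 in anti-CD40 and 6.00 in TRUC mice. Ifng was counted 7, 2 and 594 times in DSS mice 5, 6 and 8, 27 to 67 times in anti-IL10 mice and 1 time in all wild-type controls, so its DSS level was that of mouse 8.

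The bases around the Pigr start are shown with matches to short sequences in capitals. These bases lie on the plus strand at chr1:130826434-130826683, before the start, and chr1:130826684-130826709, from the start on, in the RefSeq promoter table of build GRCm38.p6.
Pigr before the start: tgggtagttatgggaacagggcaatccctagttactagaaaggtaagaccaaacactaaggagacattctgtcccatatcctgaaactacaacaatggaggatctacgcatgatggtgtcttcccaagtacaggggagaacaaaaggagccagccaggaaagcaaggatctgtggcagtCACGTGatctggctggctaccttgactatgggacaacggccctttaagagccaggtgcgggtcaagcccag
Pigr from the start: aaaacagTTTCAGTTttgacaatagt
Capitals mark an E-box, CACGTG, 71 bases before the start, and a match to the core bound by interferon regulatory factors, AANNGAAA, on the reverse strand. Both strands were searched. The E-box occurred in 7.15% and the core in 23.9% of 32851 promoter windows of 300 bases. A match describes the letters only. No NF-κB site was searched for, and binding of any factor was not tested.

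The genes most like Pigr over all 29 mice, among 10473 genes, were Ckmt1, Dhrs11, Maoa, Acad11 and Sort1, with Pearson's r of log2 CPM from 0.845 to 0.891. The genes least like it were Igfbp5, Vcan, Anxa5, Sulf1 and Inhba, with r from −0.833 to −0.798. With Igha, r was −0.035. Mice of a group share their treatment, and each r is a description.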

How the data were processed

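Colon RNA of 29 mice was sequenced from poly(A) libraries. The table that the authors deposited holds unnormalized counts of reads for every gene in each mouse, and the submitters' processing notes name Trimmomatic, HISAT2 and HTSeq and build GRCm38, with no versions or settings. The study's methods name other tools only for human colonoids. Total counts were 10725564 to 14977094 per mouse (median 12287039), so 3 counts, the limit that a count of 0 allows, correspond to 0.179 to 0.313 CPM, counts scaled to a common library total. Limits and counting intervals cover counting error only. The 92 spike-in rows held 0 counts and were left out. No same-group pair of the 33 looked like a repeated library (chi-square per degree of freedom at least 3.65). Groups came from the labels, which name no batch and do not say whether mice shared cages, so p-values measure the spread between these mice.

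CPM were scaled by TMM. The 18616 genes averaging 3 counts or more entered a quasi-likelihood fit in edgeR 4.0.16 (R 4.3.3) with all 9 groups and no covariate. Models were set against their own controls, and against each other by F tests. Adjusted p-values are Benjamini-Hochberg over all genes tested, with a threshold of 0.05, and standard errors are the log2 fold change over the square root of F. On simulated data 57.3 to 62.1% of genes changed by a log2 fold of 1 and 91.8 to 95.9% of those changed by 2 were recovered. DESeq2 1.42.0 was an alternative. Ratios were taken on counts with 0.5 added and compared by exact two-sided permutation tests (scipy 1.17.1 under Python 3.11.15). Per-kilobase levels used the length of the secreted transcript in GENCODE M21.

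All 10 genes are given. Of each other list, the 2 genes with the largest and the 2 with the smallest called change per comparison could be named, and the 5 genes most like Igha, and most and least like Pigr, among genes over 10 CPM. Genes outside that rule are marked. The genes and lists were chosen with earlier results of these data known. The alternatives tried were other scalings (RLE, upper quartile, TMM without immunoglobulin rows), other filters, 2-group fits, DESeq2, other controls, a replicate block, other pseudocounts and lengths, and leaving out each mouse. The summed lambda genes, the epithelial list without Cdx2, and the other lists without DSS mouse 8 or anti-IL10 mouse 3 were added after seeing the data. Some genes of these lists are not reported here.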

Additional observations from a re-analysis of the deposited data

Results flagged for a closer look

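In anti-IL10 mice, mouse 3 lay far from the other 3 in Ighg2c (gap to the nearest mouse over the group's range 0.906, at 145.1 CPM) and in Ighg3 (0.869, at 80.9 CPM). Such gaps arise in about 1 in 20 groups of 4 by chance, and 13 groups of 4 mice were examined. Both genes rose with and without that mouse.

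The change from control differed between the 3 lymphocyte-replete models for all 10 genes in the edgeR F test, with adjusted p = 5.31e-09 for Igha, 0.00184 for Ighm, 0.000722 for Ighg1, 1.25e-06 for Ighg2b, 4.99e-05 for Ighg2c, 1.73e-05 for Ighg3, 6.31e-08 for Igkc, 7.5e-07 for Iglc1, 9.34e-09 for Jchain and 0.00125 for Pigr. Every anti-IL10 mouse lay above every DSS and DNBS mouse in CPM of each gene except Ighm and Ighg1, where the mice overlapped. Pigr also differed between all 6 models (adjusted p = 0.00346).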

How the results depend on the processing

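The number of genes called in anti-IL10 and Rag2-/- mice and in both F tests stayed within 1.5 times its value, and the Pigr difference beside epithelial genes stayed negative, under every alternative run. For the ratios no p could pass 0.05, so that says nothing of their stability. The 2-group edgeR fit called 1 gene in DSS, 0 in DNBS, 2 in TCT, 1 in anti-CD40 and 2 in TRUC mice, with Pigr at −0.62 in DSS, −0.50 in TCT and −0.41 in TRUC mice on the log2 scale. DESeq2 called 1 in DSS, 2 in DNBS, 2 in TCT and 2 in TRUC mice, with Pigr at −0.62, −0.58, −0.48 and −0.40, and at 0.0162 in anti-CD40 mice. The anti-CD40 Pigr value was 0.0258 with no filter and 0.0005 with edgeR's own filter. Upper quartile scaling gave Pigr −0.0065 in anti-IL10 and −0.52 in TRUC mice, where it called 1 gene. Against the wild-type control, 9 genes were called in TCT mice, with Ighm at −2.63 and Igkc at −8.88, and against the Rag2-/- control Ighm in anti-CD40 mice was −0.43. Per kilobase of exon union the IgG to IgA difference in DNBS mice was −0.0633. Causes were not tested.

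Leaving out each mouse gave 0 to 4 genes called in DSS (0 without DSS mouse 8), 0 to 4 in DNBS (0 without control mouse 4 or DNBS mouse 14 or 16) and 0 to 1 in TCT mice. Calls over all genes dropped too. Without DSS mouse 8 they went from 3299 higher and 3037 lower to 1940 and 1895. In DNBS mice calls lower went from 412 to 195 without control mouse 4, and to 43 and 52 without DNBS mice 14 and 16. Pigr ranged from −0.92 to −0.36 in DSS, −0.64 to −0.39 in TCT and −0.18 to 0.13 in anti-CD40 mice. The IgG to IgA difference in DNBS mice ranged from −0.22 to 0.51, and the lambda to kappa difference from −0.26 to 1.54 in DSS and −0.26 to 0.77 in DNBS mice. In DSS mice Ighg2c ranged from −1.99 to 0.18, Igkc from −0.88 to 0.11 and Iglc1 from −0.28 to 0.66. In DNBS mice Ighg1 ranged from −1.19 to 0.21 and Ighg2b from −2.07 to 0.27. The robust fit, chosen after seeing the data, gave Ighg2c in DNBS mice an adjusted p of 0.0572.

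Replicate numbers shared between groups did not pair the mice: same-number correlations of deviations were 0.056, 0.014 and −0.02 for anti-IL10 and control mice. With a replicate block 8 genes were called in anti-IL10 mice, where Ighm was 0.60 (edgeR adjusted p = 0.334), 0 in TRUC and 9 in Rag2-/- mice, and the anti-IL10 differences of the IgG to IgA, IgM to IgA and lambda to kappa ratios were 0.90, −2.68 and 1.33. Depth limits Ighg1, Ighg3 and Iglc1 in Rag-deficient mice, where counts were 0 or 1.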
